A study of Saccharomyces cerevisiae with 12 samples.

Results

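Ribonucleotide reductase makes deoxynucleotides from ribonucleotides, and budding yeast limits it by transcription, by protein inhibitors and by location. RNA was counted for 10 genes of this system in Saccharomyces cerevisiae: the large-subunit genes RNR1 and RNR3, the small-subunit genes RNR2 and RNR4, the inhibitor genes HUG1 and SML1, the regulators RFX1, DUN1 and CRT10, and the damage-inducible nuclease gene DIN7. The genes were taken by their standard names, and 10 of 10 were found among the 6219 genes of the counts table. All 10 passed the filter on low counts that left 5654 genes to test.

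The cells were haploids of the W303 background in 4 groups of 3 libraries, and each group is 1 strain. Effects of the allele or of mating type below are therefore differences between strains. They cannot be told apart from other differences between those strains. Strain DY150 is wild type (WT) MATa, DY3420 is WT MATalpha, DY19304 is MATa with tup1(S649F), and DY19306 is MATalpha with the same allele, a point mutation in the gene of the corepressor Tup1. Shared by the 4 strains, controls included, are the alleles his3-11,15, ade2-1, ura3-1, can1-100, trp1-1 and leu2-3,112. Cultures in yeast extract, peptone and adenine with 2% dextrose at 30 °C were taken in log phase, at an absorbance of 0.6 to 0.8 (660 nm), and total RNA depleted of ribosomal RNA was sequenced from both ends in stranded libraries. The labels do not say that the replicates of a strain were separate cultures, so the p-values measure only the spread between these samples, which may be technical.

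The libraries held 5657714 to 9300353 counts. Chi-square values per degree of freedom between replicates, on genes whose pair held 20 counts or more, were 1.40 to 2.68 for WT. In tup1 MATalpha the pairs gave 7.40 to 12.2. Replicate 1 of tup1 MATa stood apart, at 21.0 and 28.3 against the other two, which differed from each other by 4.08. STE3, the a-factor receptor gene of MATalpha cells, was higher in MATalpha than in MATa in both WT (log2 fold change 8.16) and tup1 (9.69), which is the direction the labels give. TUP1 itself stood at 387 ± 9.25 and 526 ± 51.9 CPM (SD, n = 3; counts scaled to a common library total) in WT and tup1 MATa, and at 446 ± 12.4 and 479 ± 37.2 CPM in WT and tup1 MATalpha. The allele changes 1 residue of the protein, so the RNA level of TUP1 is no check of genotype.

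In yeast the large subunit, which holds the catalytic site, is mainly Rnr1, and Rnr3 is a second form made chiefly after DNA damage. The small subunit is a pair of Rnr2, which carries the iron and tyrosyl radical cofactor, and Rnr4, which lacks it. Rfx1, also called Crt1, binds X-boxes upstream of RNR2, RNR3, RNR4, HUG1 and its own gene and recruits Tup1 and Cyc8, and the Mec1, Rad53 and Dun1 kinases release this repression when DNA is damaged. The names record the genetics: CRT stands for constitutive RNR3 transcription, and the RefSeq gene table lists CRT1 as another name of RFX1, CRT4 of TUP1, CRT8 of CYC8, CRT7 of RNR1, CRT6 of RNR2 and CRT3 of RNR4.

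The promoters differ in the letters they hold, and the stretches with the clearest matches are shown so that the RNA values can be read against them. The 800 bases before the coding start of 5997 genes were searched in the R64 genome, the build of the counts. These are the letters of the reference genome. The promoters of the W303 strains used here were not read and may differ from them. An X-box palindrome was spelled TTGCCATGGCAA, its arms TTGCC and, on the other strand, GGCAA. The MCB, the element bound by the G1/S factor of Mbp1 and Swi6, was spelled ACGCGT. Palindrome, arm and MCB letters were searched on both strands, and an arm inside a palindrome was counted in both. Positions count back from the coding start, in the direction of the gene, and give the first base of a match.

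Capitals mark the palindrome, with up to 2 mismatches, and the MCB in these lines.

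RNR4: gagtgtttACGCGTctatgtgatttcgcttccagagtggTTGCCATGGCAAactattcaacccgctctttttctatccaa

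RNR3: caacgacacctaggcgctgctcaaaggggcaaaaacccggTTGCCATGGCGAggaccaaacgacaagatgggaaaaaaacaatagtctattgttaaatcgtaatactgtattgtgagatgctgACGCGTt

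RNR2: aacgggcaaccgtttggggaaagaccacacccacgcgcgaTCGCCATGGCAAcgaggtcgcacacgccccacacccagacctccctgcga

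RFX1: cgtgTTGTCATGGCGAtttg

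The RNR4 line is chrVII:857022-857101 on the minus strand, the RNR3 line chrIX:240889-241018 on the minus strand, the RNR2 line chrX:391924-392013 on the plus strand and the RFX1 line chrXII:510263-510282 on the minus strand. RNR4 held the palindrome without a mismatch, 761 bases before its coding start. That spelling occurred in 3 of the 5997 promoters (0.050%), the others being those of NDE2 and YDL085C-A, a pair of neighbouring genes. Windows were searched gene by gene, so a single site between divergent neighbours counts for both genes. RNR2, 440 bases before its start, and RNR3, 270 bases before its start, held it with 1 mismatch. At most 1 mismatch was found in 29 promoters (0.484%). The RNR2 match lies in a window that overlaps the annotated gene YJL027C, and the other windows shown overlap none. RFX1 held the palindrome with 2 mismatches 46 bases before its start, which 284 promoters do (4.74%).

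HUG1 had no palindrome within 2 mismatches in this window. In the HUG1 line, chrXIII:158520-158609 on the plus strand, capitals mark the 2 arms of a perfect inverted repeat.

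HUG1: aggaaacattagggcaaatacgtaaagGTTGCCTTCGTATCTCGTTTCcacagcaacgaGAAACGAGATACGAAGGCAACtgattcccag

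Each arm is 21 bases, the spacer is 11, and the repeat runs from 213 to 161 bases before the coding start. An X-box arm lies near each outer end, at 212 and 166 bases before the start. Perfect inverted repeats with arms this long and a spacer of at most 30 bases were found in 11 of 5997 promoters (0.183%). One of the 11 is the RFX1 promoter, 641 to 600 bases before its start and with no spacer.

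RNR1 had the most MCBs of the 10 genes. Its line is chrV:298450-298649 on the plus strand, with each MCB in capitals.

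RNR1: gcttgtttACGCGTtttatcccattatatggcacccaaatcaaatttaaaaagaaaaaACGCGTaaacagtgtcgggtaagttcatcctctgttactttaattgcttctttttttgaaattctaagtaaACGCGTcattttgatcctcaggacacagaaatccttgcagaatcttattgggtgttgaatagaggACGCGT

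RNR1 held 4 MCBs, at 492, 442, 371 and 306 bases before its start, and its nearest spellings of the palindrome had 3 mismatches. RNR3 held 2, at 546 and 187 bases, and RNR4, DIN7 and DUN1 held 1 each, at 792, 185 and 163. At least 1 MCB was present in 457 promoters (7.62%) and at least 2 in 45 (0.750%), and RNR1 was the only one of the 5997 with 3 or more. Matches to the palindrome with 3 mismatches were in 31.3% of promoters and a single X-box arm in 77.3%, so both are common. SML1, DUN1, DIN7 and CRT10 held no palindrome within 2 mismatches, and CRT10 held none of the searched letters. A match is a description of the letters, and its absence says only that they are not in this window.

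The first question is how each gene differed between the tup1(S649F) and the WT strain within a mating type. In MATa, 7 of the 10 genes rose, 1 fell and 2 did not pass the test; over all 5654 genes 24.7% were called higher and 16.7% lower (edgeR quasi-likelihood test, Benjamini-Hochberg adjusted p under 0.05). In MATalpha the same 7 rose, none was called lower and 3 did not pass, against 32.0% of all genes called higher and 31.0% lower. The 7 are RNR1, RNR2, RNR3, RNR4, HUG1, RFX1 and SML1. Of these, 5 rose at least 2-fold in MATa (8.08% of all genes did) and 4 in MATalpha (12.9%). The median log2 fold change of the 10 genes was 0.83 in MATa and 0.75 in MATalpha, beside −0.01 and −0.03 over all genes. With upper-quartile scaling the median of all genes moved to −0.12 and −0.18, and the share of calls that were higher went from 59.6% to 38.5% in MATa and from 50.8% to 37.5% in MATalpha. The same 7 genes rose in both mating types under each of the 18 alternatives.

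**Figure D1:**
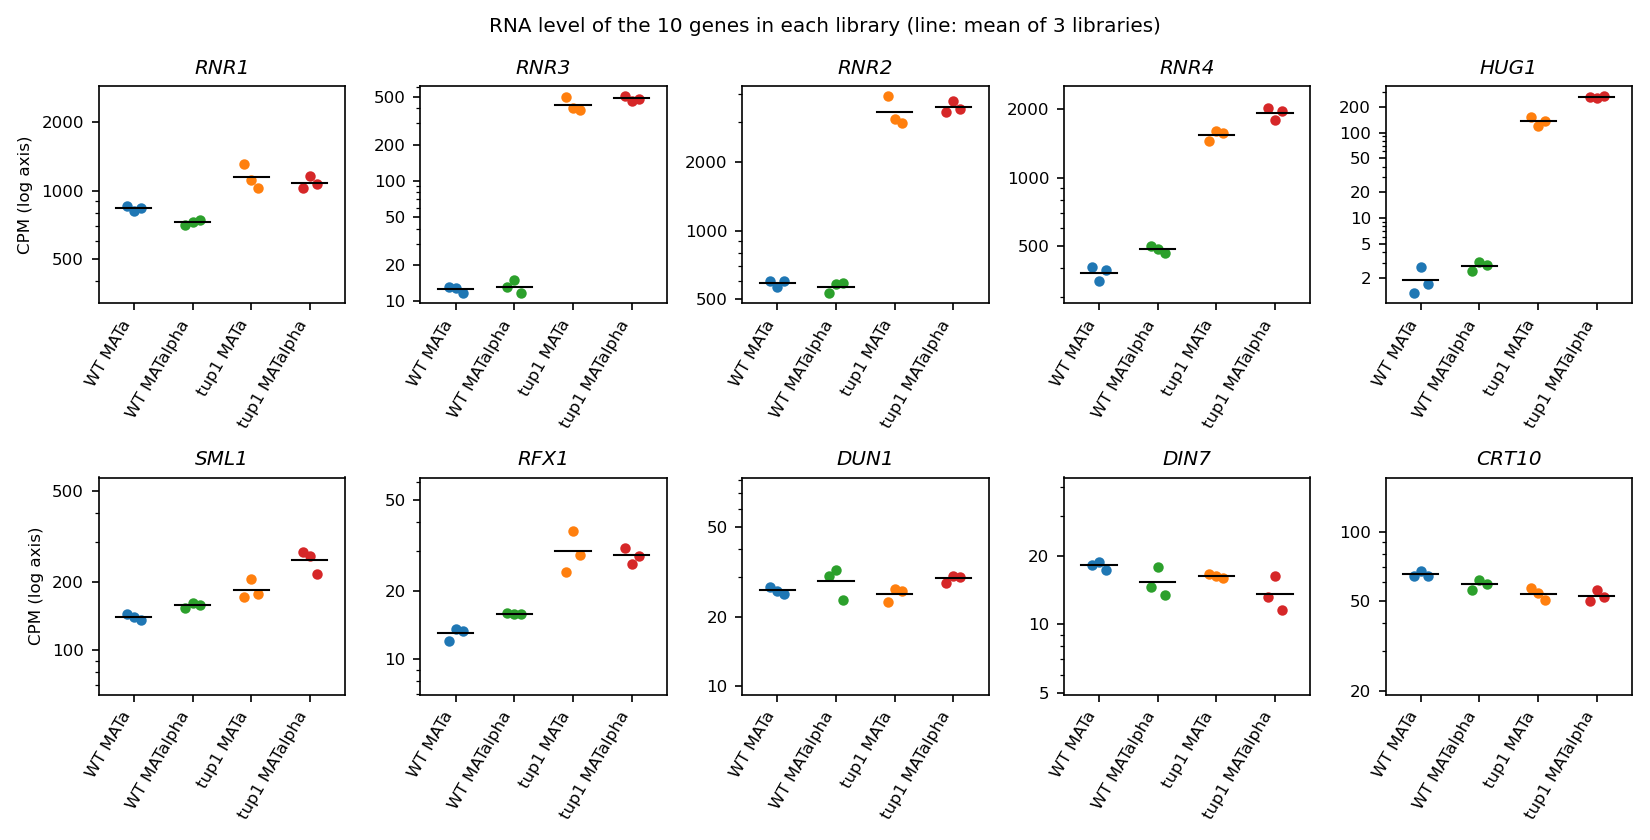
CPM of each gene in each of the 12 libraries on a log axis, 1 panel a gene, with a line at the mean of each group of 3; each panel has its own range. RNR3, RNR2, RNR4 and HUG1 separate tup1 from WT most widely, while DUN1 overlaps between strains in both mating types.

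RNR3 (YIL066C, chrIX:238099-240708, minus strand) encodes the damage-inducible large subunit. WT MATa gave levels of 13.1, 12.8 and 11.6 CPM, and WT MATalpha gave 13.1, 14.9 and 11.7. In tup1 it was 496, 400 and 388 CPM in MATa and 508, 465 and 478 in MATalpha. Every tup1 library stood far above every WT library, and the 2 mating types lay close together in each strain. The rise was 34.0-fold in MATa (log2 fold change 5.09 ± 0.11 SE, edgeR adjusted p = 1.35e-17) and 36.5-fold in MATalpha (5.19 ± 0.11, edgeR adjusted p = 4.94e-18). SE here and below is the absolute log2 fold change divided by the square root of the edgeR F value. It is derived from the test and was not estimated separately. WT libraries held 79 to 133 RNR3 counts and tup1 libraries 2448 to 3642.

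RNR1 (YER070W, chrV:298950-301616, plus strand) encodes the main large subunit, whose transcription peaks at the G1/S transition. It stood at 853, 812 and 840 CPM in WT MATa and at 709, 730 and 741 in WT MATalpha. In tup1 it reached 1303, 1119 and 1029 CPM in MATa and 1027, 1156 and 1068 in MATalpha. The groups did not overlap, and the differences were small: 1.38-fold in MATa (0.46 ± 0.08 SE, edgeR adjusted p = 0.000196) and 1.49-fold in MATalpha (0.58 ± 0.08, edgeR adjusted p = 8.22e-06). The outlying library, replicate 1 of tup1 MATa, was the highest of the 12, and without it the MATa value was 0.37, still called.

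The coding sequences of RNR1 and RNR3 are 77.1% identical over 2607 aligned bases, with a longest identical run of 38 bases. How reads that match both were counted is not given in the sources used here.

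RNR2 (YJL026W, chrX:392404-393603, plus strand) encodes the cofactor-bearing small subunit and was, per length, the highest of the 10 genes in 3 of the 4 groups. Its level was 601, 569 and 602 CPM in WT MATa and 535, 582 and 589.6 in WT MATalpha. In tup1 it was 3899.9, 3112 and 2979.9 CPM in MATa and 3322, 3723 and 3451 in MATalpha. The tup1 libraries all lay several times above the WT ones, with replicate 1 of tup1 MATa again the highest. The rise was 5.64-fold in MATa (2.50 ± 0.10 SE, edgeR adjusted p = 1.48e-13) and 6.15-fold in MATalpha (2.62 ± 0.10, edgeR adjusted p = 4.93e-14).

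RNR4 (YGR180C, chrVII:855264-856301, minus strand) encodes the partner of Rnr2 in the small subunit. It stood at 404, 352 and 391 CPM in WT MATa and at 503, 486 and 467 in WT MATalpha. In tup1 it stood at 1452, 1605 and 1575 CPM in MATa and at 2022, 1798 and 1973 in MATalpha. Here the MATalpha libraries lay above the MATa libraries in each strain. The rise was 4.04-fold in MATa (2.01 ± 0.08 SE, edgeR adjusted p = 1.41e-13) and 3.98-fold in MATalpha (1.99 ± 0.08, edgeR adjusted p = 9.38e-14). RNR2 and RNR4 are 68.0% identical over 1037 aligned coding bases, with a longest identical run of 14 bases.

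HUG1 (YML058W-A, chrXIII:158760-158966, plus strand) encodes a small protein that binds Rnr2 and is induced by DNA damage. It was almost silent in WT, with 11, 21 and 12 counts for MATa (1.31, 2.64 and 1.66 CPM) and 24, 22 and 19 for MATalpha (2.36, 3.08 and 2.82 CPM). In tup1 it reached 152, 118 and 136 CPM in MATa and 259, 252 and 269 in MATalpha. It had the largest rise of the 10 genes, 72.0-fold in MATa (6.17 ± 0.15 SE, edgeR adjusted p = 3.86e-17) and 95.4-fold in MATalpha (6.58 ± 0.13, edgeR adjusted p = 4.49e-18). Among the 5654 genes its fold change lay at percentile 99.8 in MATa and 99.6 in MATalpha. The few WT counts limit the size of the fold: leaving out 1 library moved the MATa log2 value between 5.96 and 6.51. For HUG1 in WT MATalpha against WT MATa the SE so derived was 0.29, so the SE of the rise may be too narrow.

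SML1 (YML058W, chrXIII:159383-159697, plus strand) encodes the inhibitor that binds Rnr1 and is degraded in S phase and after damage, and it is the next gene after HUG1, 416 bases on. It stood at 144, 140 and 136 CPM in WT MATa and at 153, 162 and 158 in WT MATalpha. In tup1 it stood at 171, 205 and 177 CPM in MATa and at 270.4, 260.3 and 215 in MATalpha. No WT library reached a tup1 library of the same mating type. The rise was 1.32-fold in MATa (0.40 ± 0.08 SE, edgeR adjusted p = 0.000635) and 1.58-fold in MATalpha (0.66 ± 0.08, edgeR adjusted p = 8.96e-07). So in each mating type these neighbouring genes, both for inhibitors of the enzyme, rose by amounts far apart.

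RFX1 (YLR176C, chrXII:507797-510232, minus strand) encodes the X-box repressor itself. It was a low transcript in WT, at 12.1, 13.6 and 13.3 CPM in MATa and 15.9, 15.8 and 15.7 in MATalpha. In tup1 it was 24.2, 36.5 and 28.8 CPM in MATa and 30.9, 26.3 and 28.5 in MATalpha. The groups did not overlap, and replicates 1 and 2 of tup1 MATa were the lowest and the highest of the 6 tup1 libraries. The rise was 2.28-fold in MATa (1.19 ± 0.13 SE, edgeR adjusted p = 3.78e-07) and 1.80-fold in MATalpha (0.85 ± 0.13, edgeR adjusted p = 1.45e-05).

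DUN1 (YDL101C, chrIV:280307-281848, minus strand) encodes the kinase that phosphorylates Sml1 and Rfx1. It stood at 27.2, 26.1 and 25.4 CPM in WT MATa and 23.4, 26.6 and 25.9 in tup1 MATa. In MATalpha it stood at 30.4, 32.1 and 23.9 CPM in WT and 28.4, 30.3 and 30.2 in tup1. The strains overlapped in both mating types, and the log2 fold changes were −0.05 ± 0.11 (SE, edgeR adjusted p = 0.720) and 0.04 ± 0.10 (edgeR adjusted p = 0.786).

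CRT10 (YOL063C, chrXV:207392-210265, minus strand) encodes a regulator whose loss raises RNR gene transcription. It stood at 64.4, 67.6 and 63.8 CPM in WT MATa and 56.9, 53.8 and 50.1 in tup1 MATa, and it fell there by 0.29 ± 0.07 on the log2 scale (SE, edgeR adjusted p = 0.00385). The MATalpha libraries gave 55.9, 61.4 and 59.2 CPM for WT and 49.6, 55.7 and 51.9 for tup1. Those groups did not overlap either, but the difference missed the threshold (−0.16 ± 0.07, edgeR adjusted p = 0.0682, unadjusted p = 0.0444 from the edgeR fit). It was called lower in MATalpha with upper-quartile scaling (−0.31, edgeR adjusted p = 0.000901) and in 3 of the 12 fits that left out 1 library, with edgeR adjusted p from 0.0377 to 0.0498: those without WT MATalpha replicate 1, tup1 MATa replicate 1 or tup1 MATalpha replicate 2.

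DIN7 (YDR263C, chrIV:994242-995534, minus strand) encodes a mitochondrial nuclease, named for its induction by DNA damage. It stood at 18.3, 18.8 and 17.3 CPM in WT MATa and 16.6, 16.3 and 15.9 in tup1 MATa. In MATalpha it stood at 14.7, 17.9 and 13.5 CPM in WT and 13.2, 16.2 and 11.5 in tup1. The tup1 mean lay slightly lower in both mating types. The strains did not overlap in MATa and overlapped in MATalpha. Neither difference passed the test, at −0.16 ± 0.13 (SE, edgeR adjusted p = 0.344) and −0.16 ± 0.14 (edgeR adjusted p = 0.317). With upper-quartile scaling the MATalpha difference was called lower (−0.31, edgeR adjusted p = 0.0483). Its paralog EXO1, a nuclease of DNA repair whose coding sequence is 69.1% identical to DIN7 over 1284 aligned bases, gave 0.08 and 0.02, neither called.

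**Figure D2:**
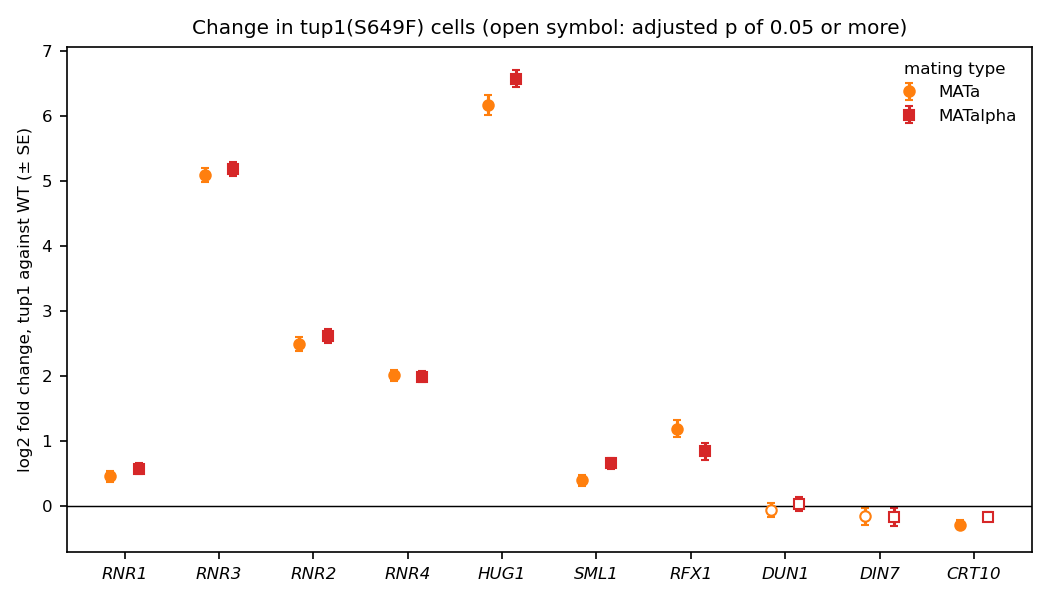
Log2 fold change of tup1 against WT for each gene, with the SE derived from the F value, in MATa (circles) and MATalpha (squares). Open symbols did not pass the test. HUG1, RNR3, RNR2 and RNR4 lie at about 2 or more in both mating types, RFX1, SML1 and RNR1 between 0.40 and 1.19, and DUN1, DIN7 and CRT10 between −0.29 and 0.04.

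Levels of different genes can be set beside each other only per length, here as CPM per kilobase (kb) of coding sequence. In WT MATa the order of the mean levels was RNR2 (492 CPM per kb), SML1 (444), RNR4 (368), RNR1 (313), CRT10 (22.7), DUN1 (17.0), DIN7 (14.0), HUG1 (9.04), RFX1 (5.33) and RNR3 (4.80). Neighbours in this order did not overlap across libraries, with the exception of RFX1 and RNR3. In tup1 MATa the order was RNR2 (2775 CPM per kb), RNR4 (1488), HUG1 (655), SML1 (585), RNR1 (431), RNR3 (164), CRT10 (18.6), DUN1 (16.4), DIN7 (12.6) and RFX1 (12.2). There HUG1 overlapped SML1, and DIN7 overlapped RFX1. RNR3 and HUG1 thus left the low end of the list, where DIN7, DUN1, CRT10 and RFX1 remained.

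In WT MATalpha the order was SML1 (501 CPM per kb), RNR2 (474), RNR4 (468), RNR1 (272), CRT10 (20.5), DUN1 (18.7), HUG1 (13.3), DIN7 (11.9), RFX1 (6.50) and RNR3 (5.06). The neighbours SML1 and RNR2, RNR2 and RNR4, CRT10 and DUN1, and HUG1 and DIN7 overlapped. In tup1 MATalpha it was RNR2 (2915 CPM per kb), RNR4 (1860), HUG1 (1256), SML1 (789), RNR1 (406), RNR3 (185), DUN1 (19.2), CRT10 (18.2), RFX1 (11.7) and DIN7 (10.5). Only DUN1 and CRT10, and RFX1 and DIN7, overlapped among neighbours in that group.

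Because the subunits work as a complex, 4 ratios were taken within each library, per length and so free of library scaling. RNR3 made up 1.51 ± 0.10% of the large-subunit RNA (RNR1 plus RNR3) in WT MATa and 1.83 ± 0.225% in WT MATalpha. In tup1 it made up 27.5 ± 0.656% and 31.35 ± 2.23% (SD, n = 3). The difference over both mating types was 27.8 percentage points. The ratio of small-subunit RNA (RNR2 plus RNR4) to large-subunit RNA was 2.71 in WT MATa and 3.40 in WT MATalpha, and 7.18 and 8.07 in tup1, taken from mean log2 values whose difference between strains was 1.33. Small-subunit RNA thus stood higher against large-subunit RNA in every tup1 library, even with the RNR3 share at its tup1 level.

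Within the small subunit, the log2 ratio of RNR4 to RNR2 was −0.42 ± 0.06 in WT MATa, −0.02 ± 0.13 in WT MATalpha, and −0.89 ± 0.28 and −0.65 ± 0.17 in the corresponding tup1 groups (SD, n = 3). The tup1 libraries lay lower by 0.55 on average over both mating types (tup1 minus WT −0.55). Between the inhibitor genes, HUG1 stood at 0.0195 of the SML1 level in WT MATa and 0.0264 in WT MATalpha. In tup1 it stood at 1.12 and 1.6 times the SML1 level, and the log2 ratio differed by 5.88 between strains. The tup1 MATa libraries ran from 0.88 to 1.36, so they lay on both sides of an equal level. Which of the 2 genes is higher in tup1 also depends on the division by coding length. In CPM, HUG1 and SML1 stood at 136 and 184 in tup1 MATa and at 260 and 249 in tup1 MATalpha.

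Each of the 4 ratios separated tup1 from WT in every library of the same mating type. The exact permutation test, two-sided and with labels permuted within mating type, gave p = 0.005 for each ratio, the smallest that its 400 arrangements allow; Benjamini-Hochberg adjustment over the 12 tests of this family gave an exact permutation p = 0.015. Within 1 mating type, 3 libraries against 3 cannot go below 0.1, and each exact permutation p was 0.1.

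**Figure D3:**
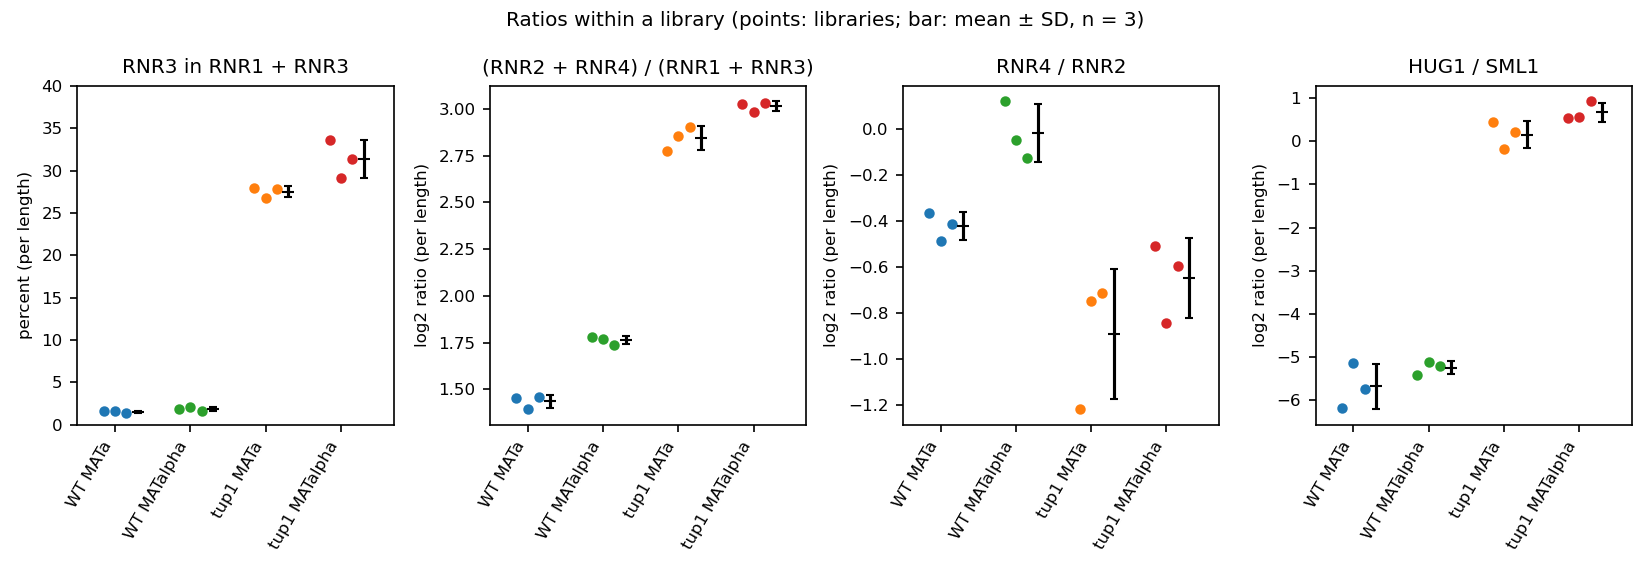
The 4 ratios in each library, per length, with the group mean and SD (n = 3) beside the points; the left panel is in percent from 0, the others on a log2 scale. The RNR3 share lies near 1.51% to 1.83% in WT and 27.5% to 31.35% in tup1, and in each panel the tup1 points stand apart from the WT points of the same mating type.

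The next comparison asks whether the effect of the allele differed between mating types. None of the 10 genes passed the test of that difference, in which 23.9% of all genes were called (edgeR interaction, MATalpha minus MATa); 1 of them, SML1, had an unadjusted p under 0.05 (0.26 ± 0.11 SE, edgeR adjusted p = 0.103). DESeq2 also called none. The largest estimates were 0.41 ± 0.31 for HUG1 (edgeR adjusted p = 0.365) and −0.34 ± 0.19 for RFX1 (edgeR adjusted p = 0.192). Their standard errors are wide, so a p that misses the threshold does not show equal effects.

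Single libraries decided whether a gene was called here. With the outlying tup1 MATa replicate 1 left out, RNR2 (0.24, edgeR adjusted p = 0.0366) was called higher and RFX1 (−0.49, edgeR adjusted p = 0.0268) lower. Without tup1 MATa replicate 2 (0.34, edgeR adjusted p = 0.0368) or tup1 MATalpha replicate 3 (0.34, edgeR adjusted p = 0.0197) SML1 was called higher.

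Between the mating types themselves, few genes were called in WT by the fit of all 4 groups. Of all genes, 0.531% were higher in MATalpha and 0.371% lower. That fit shares its spread with the tup1 libraries, which varied more. RNR4 was the 1 gene of the 10 called (1.27-fold, 0.35 ± 0.08 SE, edgeR adjusted p = 0.0481). The call was lost with RLE scaling (edgeR adjusted p = 0.0610), without a filter on low counts (0.0513), with the replicate number as a block (0.0915), without any 1 of the 6 WT libraries (0.102 to 0.257), and without tup1 MATa replicate 2 (0.0594) or tup1 MATalpha replicate 3 (0.0572). Its 3 WT MATalpha libraries all lay above its 3 WT MATa libraries. A fit of the WT groups alone, which estimates the spread from WT libraries only, called 1091 genes, against 51 in the main fit. Among them RNR4 was still called higher in MATalpha. That fit also called SML1 higher (0.17, edgeR adjusted p = 0.00602) and RNR1 lower (−0.20, edgeR adjusted p = 3.81e-05) in MATalpha. RNR1 was called lower too without tup1 MATa replicate 1 (−0.20, edgeR adjusted p = 0.0333), a fit that called 399 genes.

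In tup1 cells, 3 of the 10 genes were higher in MATalpha and none was called lower, beside 17.8% and 17.2% of all genes. HUG1 was 1.91-fold higher (0.94 ± 0.08 SE, edgeR adjusted p = 3.26e-08), SML1 1.35-fold (0.43 ± 0.08, edgeR adjusted p = 0.000366) and RNR4 1.25-fold (0.32 ± 0.08, edgeR adjusted p = 0.00390). DESeq2 called none lower either, and 5 of the 10 had an unadjusted p under 0.05 in either direction. The RNR4 call was lost in a fit of the tup1 groups alone (edgeR adjusted p = 0.0543). Without tup1 MATa replicate 1, RNR2 (0.19, edgeR adjusted p = 0.0252) and RNR3 (0.29, edgeR adjusted p = 0.000684) were called higher as well, and without tup1 MATalpha replicate 2 DIN7 was called lower (−0.41, edgeR adjusted p = 0.0421). These comparisons share their tup1 libraries with those of tup1 against WT.

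The palindrome was then read across the genome. Of the 29 genes with at most 1 mismatch, some of them divergent neighbours that may share a site, 28 were tested. In MATa 10 rose and 5 fell, in MATalpha 10 rose and 10 fell, and the medians were 0.05 and 0.02 on the log2 scale. With upper-quartile scaling 9 rose and 9 fell in MATa, 10 rose and 12 fell in MATalpha, and the medians were −0.06 and −0.13. With RNR2, RNR3 and RNR4 left out, 7 of 25 rose in each mating type, beside 24.7% and 32.0% of all genes. These counts lie near the background, so nothing about the motif is read from them. NDE2 and QDR2, named after their values were seen, had the largest rises of these 25. NDE2, a mitochondrial NADH dehydrogenase with the palindrome spelled in full, went from 1.10 ± 0.242 to 32.35 ± 5.55 CPM in MATa (SD, n = 3) and rose by 4.85 and 4.49. QDR2, a multidrug transporter, rose by 1.91 and 2.96. YDL085C-A, the third gene with the full spelling, may share its match with NDE2. It stood at 0.23 and −0.18, neither called.

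Another 6 lists of related genes, chosen with earlier results of these data known, place the 10 genes in their pathway. The counts for all 6 lists compare tup1 with WT. They are to be read beside the shares of all genes. In MATa 24.7% of all genes were called higher and 16.7% lower, and in MATalpha 32.0% and 31.0%. Of 14 checkpoint sensors and kinases, the relay that acts above Dun1, none was called higher, 3 fell in MATa and 6 in MATalpha; 5 and 7 had an edgeR unadjusted p under 0.05 in either direction, and DESeq2 too called none higher. The adaptor RAD9 fell in both (−0.36 and −0.56), from 74.0 to 57.8 CPM in MATa. MEC1, the sensor kinase, also fell in both (−0.31 and −0.21). TOF1, of the fork protection complex, was called lower in MATalpha (−0.45) and not in MATa (−0.05). Without tup1 MATa replicate 1, 1 gene of this list was called higher in MATa. The median log2 fold change of the list was −0.07 in MATa and −0.15 in MATalpha, beside −0.01 and −0.03 over all genes. Most genes of the list were not called in either mating type, so no fall of the relay as a whole is read from these counts.

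Of 17 G1/S replication genes, listed as the class of RNR1, none was called higher, 10 fell in MATa and 13 in MATalpha; 11 and 15 had an edgeR unadjusted p under 0.05, and DESeq2 too called none higher. POL1, the catalytic subunit of primase-associated DNA polymerase alpha, fell in both mating types (−0.52 and −0.54), in MATa from 129 to 89.7 CPM. The S-phase cyclin gene CLB5 fell in both as well (−0.46 and −0.33), and its MATa call was lost without WT MATa replicate 3 (edgeR adjusted p = 0.0508). In MATalpha the largest falls were in RNH201 (−0.75), of ribonuclease H2, and RFA3 (−0.59), of the single-strand binding complex. RNR1 was called higher in both mating types, and none of these 17 was.

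Of 17 genes for DNA damage-inducible repair and stress, 7 rose and 2 fell in MATa, and 9 rose and 3 fell in MATalpha. DDR2, a stress gene, went from 2.00 ± 0.121 to 80.1 ± 20.4 CPM in MATa (SD, n = 3), and rose by 5.31 and 4.47. DDR48, a stress protein gene, rose by 2.88 and 3.47. The cell cycle gene TOS4 fell by 0.31 and by 0.57, as did RAD6, a ubiquitin-conjugating enzyme gene, in MATa (by 0.27) and RAD23, of nucleotide excision repair, in MATalpha (by 0.66). The RAD6 call was lost without WT MATa replicate 1 (edgeR adjusted p = 0.158) or tup1 MATa replicate 1 (0.0934).

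Of 6 other genes of deoxynucleotide synthesis, 1 rose and 1 fell in MATa, and 1 rose and 3 fell in MATalpha. YNK1, the nucleoside diphosphate kinase, rose in both (0.36 and 0.47). CDC8, the thymidylate kinase, fell in MATa (−0.43), a call lost without tup1 MATa replicate 3 (edgeR adjusted p = 0.0507). DUT1, the dUTPase (−0.89), and DCD1, the deoxycytidylate deaminase (−0.78), fell in MATalpha. The effect on DUT1 differed between mating types (interaction −0.71, edgeR adjusted p = 0.00113), as did that on DFR1, the dihydrofolate reductase (−0.86, edgeR adjusted p = 0.000597).

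Of 11 genes for the location and the cofactor of the enzyme, 3 rose and 3 fell in MATa, and 6 rose and 3 fell in MATalpha; with upper-quartile scaling the counts were 3 and 6, and 3 and 5. WTM1 and WTM2 encode related nuclear proteins, and Wtm1 anchors the small subunit in the nucleus; both genes rose in both mating types, WTM1 by 0.44 in MATa and 0.71 in MATalpha, and WTM2 by 0.91 and 0.51. DIF1, whose product helps import the small subunit and is related to Sml1 and Hug1, rose by 0.75 in MATa and 0.28 in MATalpha, the latter not called with upper-quartile scaling (0.13, edgeR adjusted p = 0.166) or without tup1 MATalpha replicate 2 (0.21, edgeR adjusted p = 0.0562). The genes for Dre2 (−0.71 and −0.53), which works in iron-sulfur cluster assembly and helps load the Rnr2 cofactor, and the glutaredoxin Grx4 (−0.54 and −0.58) fell in both. GRX3, for the paralogous glutaredoxin, stood at 49.8 and 41.0 CPM in WT and tup1 MATa and rose in MATalpha from 55.55 ± 1.73 to 384 ± 87.6 CPM (SD, n = 3; 2.78, interaction 3.07, edgeR adjusted p = 1.59e-08).

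Of 9 transcription factor genes linked to RNR genes, 4 rose and none was called lower in MATa (5 had an edgeR unadjusted p under 0.05 in either direction, and DESeq2 called none lower), while 1 rose and 5 fell in MATalpha; with upper-quartile scaling the counts were 3 and 2, and 0 and 6. ROX1, the hypoxic repressor, rose by 0.74 in MATa and by 0.35 in MATalpha (edgeR adjusted p = 0.0325), the latter lost with upper-quartile scaling (0.220) and in 5 of the fits that left out 1 library (0.0647 to 0.131). RAP1 (−0.55) and IXR1 (−0.51), the latter for an activator of RNR1, fell in MATalpha. The effect on IXR1 differed between mating types (interaction −0.76, edgeR adjusted p = 0.00192).

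**Figure D4:**
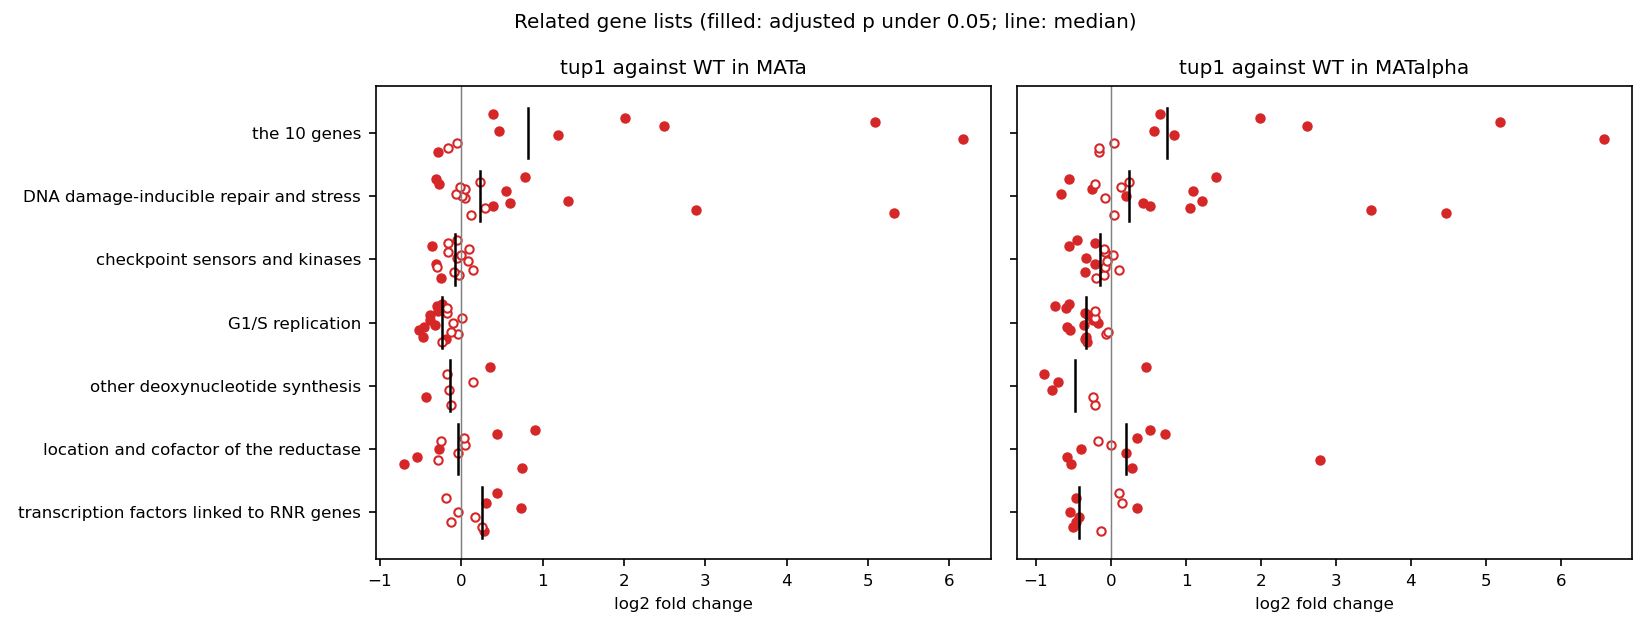
Log2 fold change of tup1 against WT for each gene of the 10 and of the 6 related lists, in MATa (left) and MATalpha (right); filled points passed the test and the line is the list's median. The medians of the 10 genes are 0.83 and 0.75, those of the G1/S replication list −0.24 and −0.33, and those of the checkpoint list −0.07 and −0.15.

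The 10 genes do not share 1 pattern across the libraries. Ranked by Pearson's r of log2 CPM with RNR3 over the 12 libraries, RNR2 came at rank 7 (r = 0.997) of 5653 genes, HUG1 at 53 (0.993), RNR4 at 130 (0.986), RFX1 at 502 (0.943), RNR1 at 658 (0.917) and SML1 at 1079 (0.822). DUN1 (rank 2628, r = 0.02), DIN7 (3455, −0.41) and CRT10 (4950, −0.81) ran otherwise. The 5 genes nearest to RNR3 were HXT15 (0.999), ADR1 (0.998), ADE17 (0.998), AQY3 (0.998) and ANB1 (0.997). HXT15 has a near-identical copy, so its counts are uncertain. These values are a description: the 12 libraries fall into the WT and the tup1 strains, all share library scaling, and a high r says mainly that a gene separates the strains with little spread.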

How the data were processed

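Per the labels, RNA came from 4 strains with 3 libraries each. The authors deposited raw counts of reads per gene in 1 table. The tools were featureCounts 1.6.3 (Subread), STAR 2.7.3 and cutadapt 2.8, and the builds R64 and sacCer3, per the submitters' processing notes. Strandedness at counting, and what was done with reads matching more than 1 place, is not given in the sources used here. Of 6219 identifiers, 5842 matched the R64 gene table and 377 did not.

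The tests ran in edgeR 4.0.16 (R 4.3.3), with filterByExpr (minimum count 10), TMM scaling and 1 robust quasi-likelihood fit of the 4 group means over the 12 libraries (8 residual degrees of freedom). The 5 contrasts were tested two-sided, with Benjamini-Hochberg adjustment over 5654 genes and a threshold of 0.05. CPM values use TMM factors; levels per kb use coding length, which leaves out the untranslated ends and so raises the shortest genes most. Ratios were compared by exact permutation. Alternatives were RLE and upper-quartile scaling, no filter, DESeq2 1.42.0, fits of 2 groups, the replicate number as a block, and leaving out each library. Motifs were read from the RefSeq R64 genome. Protein sequences were not used here.

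The 10 genes and the lists were chosen with earlier results of these data known. Named besides the 10 were, per related list and comparison, up to 2 genes with the largest rise and up to 2 with the largest fall among the calls, the paralogs EXO1 and DIF1, TUP1 and CYC8, and the 5 genes nearest to RNR3 in pattern (STE3 and the genes with an X-box palindrome stand outside this rule and were chosen after values were seen); the text gives those that bear on tup1 against WT and on its difference between mating types.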

Additional observations from a re-analysis of the deposited data

Results flagged for a closer look

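The effect of tup1(S649F) differed between MATa and MATalpha for 3 genes that were followed beside the 10, by the edgeR interaction test; differences are given as MATalpha minus MATa on the log2 scale. DIF1, whose product helps import the small subunit, gave −0.46 (edgeR adjusted p = 0.00820), with effects of 0.75 and 0.28. TUP1 gave −0.34 (edgeR adjusted p = 0.0283), with effects of 0.44 and 0.10, and lost the call without any 1 of 6 libraries (edgeR adjusted p from 0.0576 to 0.0838). CYC8, for the partner of Tup1, gave −0.42 (edgeR adjusted p = 0.00957), with effects of 0.28 and −0.14. For CYC8 the MATa call was lost with upper-quartile scaling (edgeR adjusted p = 0.0689) and without tup1 MATa replicate 2 (0.0538), and the MATalpha effect was called lower with upper-quartile scaling (−0.29, edgeR adjusted p = 0.00409) and without tup1 MATa replicate 1 (0.0474) or tup1 MATalpha replicate 1 (0.0427). What underlies these differences was not tested.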

How the results depend on the processing

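The same 7 of the 10 genes were called higher in tup1 in both mating types under each alternative run. The 4 ratios kept their direction under each alternative; with the replicate number as a block their unadjusted exact permutation p was 0.03125, the smallest that test can give, and it was not adjusted over the family. Members called lower in MATalpha were 2 with upper-quartile scaling and 0 to 1 with 1 library left out. For the interaction, members called higher and members called lower were each 0 to 1 with 1 library left out. For WT MATalpha against MATa, genes called went from 51 to 1091 in a fit of the 2 groups alone and to 24 to 399 with 1 library left out; members called higher were 0 with RLE scaling and with no filter, 2 in the 2-group fit, and 0 to 1 with 1 library left out, and members called lower were 1 in the 2-group fit and 0 to 1 with 1 library left out. For tup1 MATalpha against MATa, members called higher were 3 to 5 and called lower 0 to 1 with 1 library left out. With 500 bases in place of 800, an alternative chosen after seeing the data, 6 of the 15 X-box genes tested were called higher in MATalpha and 7 in MATa, beside 10 of 28 in each with 800. The causes were not tested.

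The labels do not say that replicate numbers pair the libraries, and same-numbered libraries did not stand out as pairs. Of 18 correlations of deviations between same-numbered libraries, from −0.292 to 0.121, 1 was over 0.1 and 5 were the best of their library. Weak correlations do not show that no batch was shared. With the replicate number as a block, genes called were 2234 in MATa and 3497 in MATalpha, 1269 in the interaction, 35 in WT and 1893 in tup1, and members called higher in WT were 0 (RNR4 edgeR adjusted p = 0.0915).

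Values that changed sign all lay near 0, and none was called with its changed sign. With upper-quartile scaling these were DUN1 (−0.11) and TUP1 (−0.048) in MATalpha and EXO1 in MATa (−0.020) and MATalpha (−0.13), all for tup1 against WT. The DIN7 interaction was 0.016 with RLE scaling, 0.0042 with no filter and 0.013 with DESeq2. Leaving out 1 library gave ranges that cross 0. For tup1 against WT, DUN1 ran from −0.090 to 0.011 in MATa and from −0.075 to 0.11 in MATalpha, and EXO1 from −0.021 to 0.073 in MATalpha. In the interaction, RNR4 ran from −0.077 to 0.025, DIN7 from −0.17 to 0.11 and DUN1 from −0.020 to 0.16. For MATalpha against MATa, RNR3 ran from −0.0084 to 0.14 in WT, and in tup1 RNR1 ran from −0.16 to 0.0038, RNR2 from −0.0034 to 0.19, RFX1 from −0.20 to 0.10 and CRT10 from −0.081 to 0.0098. Depth limits HUG1 in WT, where a library held 11 to 24 counts.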
